A study of Mus musculus with 12 samples.

Results

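Chemokines are small secreted proteins that steer migrating cells, and chemokine receptors are the membrane proteins that read them. The genes described here are 53 members of these families, 33 ligands and 20 receptors, taken by name from a list and found in the GENCODE M21 annotation of the mouse genome (GRCm38, mm10) among 21755 protein-coding genes on the autosomes and the X chromosome. Of the members, only Cxcl11 is annotated as a polymorphic pseudogene and was kept. DNase-seq reads out accessible chromatin. DNase I cuts exposed DNA in isolated nuclei, and stretches rich in cuts are listed as peaks. For each gene, the best peak with its midpoint within 1 kb of the 5′ end of the gene record was taken as its promoter peak, and peaks further away but within 25 kb of the gene body were taken as distal sites.

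The 12 libraries came from mouse marrow cells. LSK cells (3 libraries) are stem and progenitor cells without lineage markers that carry SCA-1 and KIT. The stages DN1 (2 libraries), DN2a (2) and DN2b (2) follow one another on the way to T cells and were sorted by KIT, CD44 and CD25 from LSK cells grown on immobilized Notch ligand Delta1 with 4 growth factors, stem cell factor (SCF), FLT-3 ligand, IL-6 and IL-11. IgG cells (3 libraries) were grown with the same 4 growth factors on human IgG1 without Notch ligand, and the methods name no sort of them by these markers. DN1 cells were taken from cultures without IL-7 and DN2a and DN2b cells from cultures that received it, so stage and IL-7 cannot be told apart. The methods describe no IL-7 for the IgG cultures. The DN2a and DN2b libraries thus differ from the IgG libraries in IL-7 as well as in Notch ligand, and so does any mean that includes them. The 6 DN1, DN2a and DN2b libraries are together called the Delta1 libraries. Libraries of different groups can come from the same LSK isolate, the labels do not say which, and replicate numbers here only name a library.

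Chemokine genes sit in clusters, and many ligands are silent until a cell is stimulated. Ligands of the CC class draw mainly monocytes, macrophages and lymphocytes, and ligands of the CXC class draw neutrophils or activated lymphocytes. Receptors differ by cell type: Cxcr4 holds progenitors in the marrow through its ligand Cxcl12, while Ccr7 and Ccr9 guide progenitors into the thymus and thymocytes within it. In this list 12 ligands lie on chromosome 11 and 12 on chromosome 5, and 13 of the receptors lie on chromosome 9.

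The regions on which the results turn are shown first, read from GRCm38.p6 and printed 5′ to 3′ on the strand of the gene. Capitals mark exact matches to letters typical of a transcription factor family, searched on both strands: TGTGGT (RUNX), TGANTCA (AP-1) and TTGCNNAA (C/EBP), beside GTGGGAA (RBPJ), GAGGAAGT (PU.1 type ETS), the NF-kB consensus, CTTTGAT (TCF1) and the GATA factor letters, read as AGATAA, which did not occur. The first 3 are 150 base promoter peaks of genes whose peak was seen in all 6 Delta1 libraries and was absent from all or most others, each taken from the library with the highest percentile.
Ccr7, chr11:99155097-99155246, minus strand: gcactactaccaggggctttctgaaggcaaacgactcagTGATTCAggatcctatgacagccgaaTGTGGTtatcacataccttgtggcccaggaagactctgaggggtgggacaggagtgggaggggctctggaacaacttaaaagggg
Xcl1, chr1:164935717-164935866, minus strand: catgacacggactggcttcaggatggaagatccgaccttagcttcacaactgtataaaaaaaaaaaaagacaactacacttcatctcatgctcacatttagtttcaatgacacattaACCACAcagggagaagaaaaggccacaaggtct
Ccl9, chr11:83579217-83579366, minus strand: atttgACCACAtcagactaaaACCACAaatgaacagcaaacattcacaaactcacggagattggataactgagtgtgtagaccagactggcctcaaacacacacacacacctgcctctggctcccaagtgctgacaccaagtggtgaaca

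The next 3 are the promoter peaks of the neighbours Ccl4 and Ccl3, which went opposite ways between the cultures, and of Cxcl2, which was highest in the IgG libraries.
Ccl4, chr11:83662297-83662446, plus strand: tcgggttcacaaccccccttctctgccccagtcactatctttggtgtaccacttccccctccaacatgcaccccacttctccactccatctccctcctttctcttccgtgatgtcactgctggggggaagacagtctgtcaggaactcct
Ccl3, chr11:83649437-83649586, minus strand: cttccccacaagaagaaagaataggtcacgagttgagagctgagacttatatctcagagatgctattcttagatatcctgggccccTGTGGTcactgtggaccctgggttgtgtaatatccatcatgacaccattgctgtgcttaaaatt
Cxcl2, chr5:90903517-90903666, plus strand: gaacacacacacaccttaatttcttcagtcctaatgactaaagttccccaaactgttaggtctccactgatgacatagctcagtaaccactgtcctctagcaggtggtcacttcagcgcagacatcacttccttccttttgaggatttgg

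The last 3 are intronic sites of receptors, given as merged peaks of all libraries: a Ccr9 site and a Cxcr4 site that were strong in Delta1 libraries and absent or nearly so in IgG libraries, and a Ccr1 site found in IgG libraries alone.
Ccr9, chr9:123754497-123754686, plus strand: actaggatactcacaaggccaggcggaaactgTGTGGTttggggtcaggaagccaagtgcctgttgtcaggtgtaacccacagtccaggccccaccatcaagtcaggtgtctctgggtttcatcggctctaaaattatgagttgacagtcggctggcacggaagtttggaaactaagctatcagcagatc
Cxcr4, chr1:128591157-128591426, minus strand: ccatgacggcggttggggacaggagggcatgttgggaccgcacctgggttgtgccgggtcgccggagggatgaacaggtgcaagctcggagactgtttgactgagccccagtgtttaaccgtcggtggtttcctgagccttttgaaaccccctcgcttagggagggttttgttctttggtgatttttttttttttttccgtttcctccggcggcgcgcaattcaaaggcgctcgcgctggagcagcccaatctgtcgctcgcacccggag
Ccr1, chr9:123964897-123965066, minus strand: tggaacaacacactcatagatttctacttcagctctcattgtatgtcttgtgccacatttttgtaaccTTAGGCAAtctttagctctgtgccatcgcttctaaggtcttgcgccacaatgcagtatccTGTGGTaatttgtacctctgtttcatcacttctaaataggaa

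The RUNX letters stood in 4 of the 6 promoter peaks printed, those of Ccr7, Xcl1, Ccl9 (2 matches) and Ccl3, and in 2 of the 3 intronic sites. Of 81980 distinct 150 base peaks near coding start sites, 8.31% hold these letters, and of all merged sites of 170 and 190 bases 26.3% and 27.0% do. The Ccr7 peak also held the AP-1 letters, which 3.11% of promoter peaks hold, and the Ccr1 site the C/EBP letters, which 10.5% of 170 base sites hold. The peaks of Ccl4 and Cxcl2 and the Cxcr4 site matched none of the letters. The regions were chosen for their pattern, so these matches are a description.

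Each deposited list gives 1 score per peak, with no stated meaning. The score was therefore turned into a percentile, the share of the library's own peaks that score equal or lower with ties at their mid-rank, and 0 stands for no peak. Lists held between 32977 and 111657 peaks, the shortest being the 3 IgG lists (32977 to 37550) and the longest that of DN2b replicate 2. Read depth is unknown, so list length is the visible measure of how much was called, and a missing peak in a short list says less than in a long one. Over all 12730 promoters tested, the median difference was 11.7 percentile points for Delta1 against IgG libraries and -9.32 for IgG against LSK libraries. With every list cut to its 32952 highest-scoring peaks, these medians were 1.26 and -2.59. Calls of members at the start of the gene record are therefore given in both ways, and those at other starts with all peaks only.

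Of the 53 members, 24 had no promoter peak in any library, 8 had one in a single library, 18 in 2 to 11 libraries and 3 in all 12. Among all 21756 genes, 37.5% had none and 36.2% had one in all 12 libraries, against 45.3% and 5.66% of members. The ligands without a peak were Ccl1, Ccl7, Ccl8, Ccl11, Ccl12, Ccl17, Ccl20, Ccl22, Ccl28, Cxcl1, Cxcl11, Cxcl13, Cxcl15, Cxcl16 and Ppbp. The receptors without one were Ccr3, Ccr4, Ccr6, Cxcr1, Cxcr2, Cx3cr1, Xcr1, Ackr2 and Ackr4, of which Ccr4, Ccr6 and Cx3cr1 had peaks at other annotated starts, given further on.

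The 3 promoters open in every library were those of Cxcl10, Cxcr4 and Ccl25. Ccl25, the thymic ligand of Ccr9, stood between 84.1 and 96.0 in the 12 libraries, but its peak also lies within 1 kb of the start of Elavl1, a widely expressed RNA-binding protein gene, and cannot be assigned to either. Of the 8 members with a peak in a single library, 4 had it in the longest list, DN2b replicate 2: Ccl5 at 36.9, Cxcl14 at 20.6, Ccr8 at 45.6 and Cxcr6 at 54.7. Cxcl12 (4.71) and Ccr9 (13.8) had one in DN2a replicate 1, that of Ccr9 also at the promoter of Slc6a20a, Ccl6 (67.7) in IgG replicate 1 and Ccr2 (42.4) in IgG replicate 3. These 8 genes were not tested.

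The promoters of the members are poor in CpG. Within 1 kb of the start, the median ratio of observed to expected CpG was 0.219 for the 53 members and 0.478 for all 21756 genes. The ratio was at least 0.6 in 5 members, 9.43%, and in 34.2% of all genes. Members without a peak in any library had a median of 0.193, as did all genes without one (0.193), and the 3 members open in all 12 libraries had 0.696, beside 0.653 for all such genes. These ratios come from the genome alone and carry no test.

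Ligand promoters were counted per library. Of the 33 ligands, 11 ± 1 had a promoter peak in the LSK libraries (SD, n = 3) and 8 ± 1 in the IgG libraries (n = 3). The DN1 libraries had 13 ± 1.41 open ligands, the DN2a libraries 11 ± 2.83 and the DN2b libraries 10.5 ± 2.12 (n = 2 each). Of the 20 receptors, 4 ± 1 were open in LSK and 4 ± 1 in IgG libraries. The DN1 libraries had 6 ± 1.41 open receptors, the DN2a libraries 4.5 ± 0.707 and the DN2b libraries 6.5 ± 3.54. Of all coding promoters, 51.0 to 52.5% were open in LSK libraries, 48.2 to 57.1% in Delta1 and 40.9 to 44.1% in IgG libraries. Beside this shift of all promoters, the excess of open ligands in Delta1 over IgG libraries was 3.5. That excess was -0.167 at equal list lengths. There the LSK mean was 8.33 open ligands, the DN1 mean 9, the DN2a mean 7.5, the DN2b mean 6 and the IgG mean 7.67. At equal lengths the ligand excess was thus no longer seen.

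**Figure D1:**
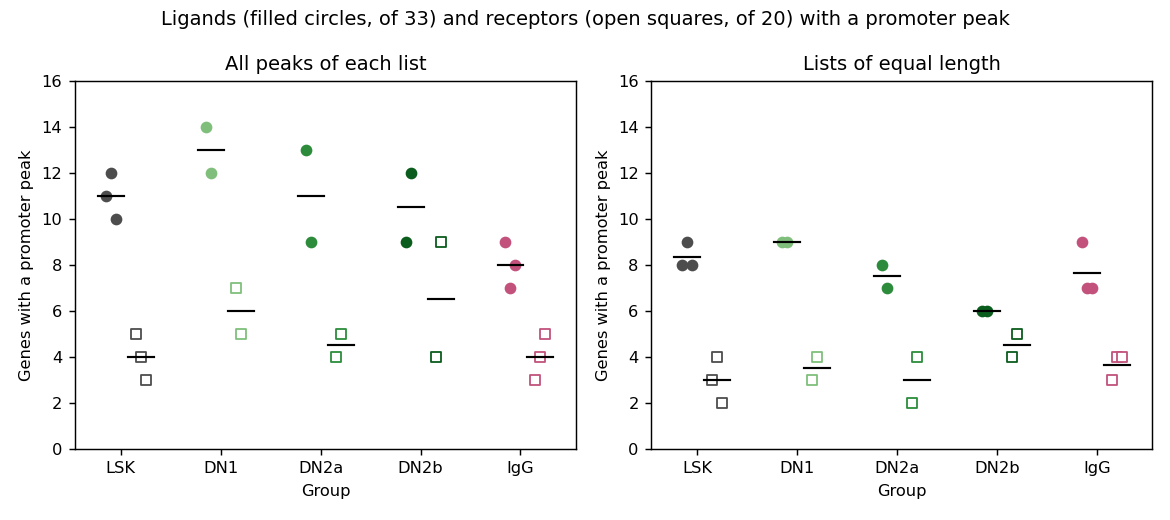
Number of chemokine genes with a promoter peak in each library (y axis) by group (x axis), for ligands (filled circles, of 33) and receptors (open squares, of 20), with group means as lines. With all peaks the IgG libraries have 7 to 9 open ligands and the DN1 libraries 12 and 14, and with lists of equal length (right) the IgG libraries still have 7 to 9 and the DN1 libraries 9 each.

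Of the members, 21 (14 ligands, 7 receptors) had a peak in at least 2 libraries and entered the test, limma on the percentiles of all 12730 such promoters with Benjamini-Hochberg adjustment and a threshold of 0.05. A gene that passed this filter through 1 group had to differ, so the counts describe the members that passed and no more. The comparisons Delta1 against IgG, Delta1 against LSK and IgG against LSK share libraries pairwise.

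Between Delta1 and IgG libraries, 15 of the 21 tested were called: 10 members were called higher in Delta1 (Ccl4, Ccl9, Cxcl9, Cxcl10, Cx3cl1, Xcl1, Pf4, Ccr7, Cxcr4 and Ackr3) and 5 lower (Ccl2, Ccl3, Ccl24, Cxcl2 and Ccr1). Of all promoters tested, 56.4% were called higher and 2.86% lower, against 47.6% and 23.8% of the members tested. At equal list lengths the background was 22.1% higher and 13.0% lower of 10985 promoters. Ccl4, Ccl9, Cxcl9, Xcl1 and Ccr7 were then still called higher, all 5 lower calls stayed, and Ccl25 and Ccr10 joined the lower ones. The higher calls of Ackr3, Cx3cl1, Cxcl10, Cxcr4 and Pf4 were lost.

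Between Delta1 and LSK libraries, 5 members were called higher in Delta1 (Ccl9, Cxcl9, Xcl1, Ccr7 and Cxcr4), beside a background of 4.97%, and 3 lower (Ccl2, Ccl3 and Ccl24), beside 3.35%. At equal lengths, with backgrounds of 4.38% and 9.11%, Xcl1 and Ccl3 lost their calls, Ccl4 was called higher, and Ackr3, Cx3cl1 and Pf4 were called lower. Between IgG and LSK libraries, 3 members were called higher in IgG (Ccl3, Cxcl2 and Ccr1), beside 2.19%, and 6 lower (Ccl4, Cxcl9, Cxcl10, Cx3cl1, Pf4 and Ackr3), beside 41.3%. At equal lengths, with 5.49% and 19.3%, the 3 higher calls stayed and Ccr10 joined them, while Ccl4, Cxcl9 and Cxcl10 lost theirs.

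Between DN2 libraries (DN2a and DN2b) and DN1 libraries, no member was called higher by limma, beside a background of 0.746%, and 3 ligands were called lower (Ccl2, Ccl3 and Ccl24), beside 1.12%. At equal lengths, with 1.18% and 1.15%, Ccl24 kept its call, Ccl2 and Ccl3 did not, Ccr1 was called lower, and Ccr7 was called higher by 35.7 ± 7.56 points (limma adjusted p = 0.0313).

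**Figure D2:**
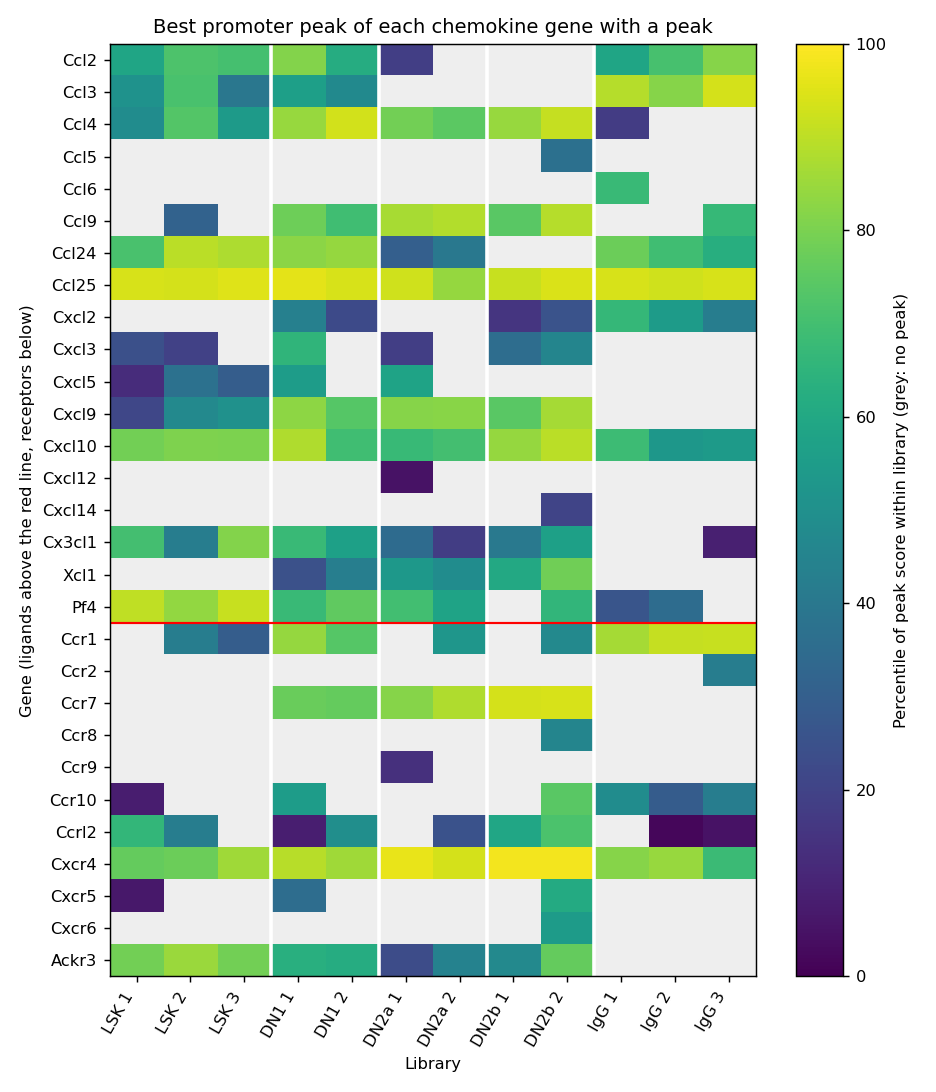
Percentile of the best promoter peak (colour, 0 to 100, grey for no peak) of the 29 chemokine genes with a peak in at least 1 library (rows) in the 12 libraries (columns). Ccr7 and Xcl1 have a peak in the 6 Delta1 libraries and in no other, and Ccl2, Ccl3 and Ccl24 lose theirs or rank lower in the DN2 libraries.

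Among the receptors, Ccr7 showed the cleanest split. Ccr7 (chr11:99144196-99155077, minus strand) had no promoter peak in the 3 LSK and the 3 IgG libraries. Its percentile was 77.2 and 76.2 in the DN1 libraries, 82.0 and 88.2 in DN2a and 93.5 and 94.0 in DN2b. The difference of the Delta1 libraries from either other group was 85.2 ± 5.55 points (SE). Ccr7 passed the filter through the Delta1 libraries alone, so these values restate that pattern and no test is drawn from them. Values after ± are standard errors of limma's difference from here on. The Delta1 libraries did not overlap the others, and both calls were kept under every alternative tried, which restates the same pattern. The peak, printed above, lay between genes with its midpoint at -74 to -134 bp from the start.

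Cxcr4 (chr1:128588199-128592293, minus strand), the receptor of Cxcl12, was open in all libraries. It stood at 76.4, 77.7 and 85.8 in LSK, 89.1 and 85.8 in DN1, 96.8 and 93.5 in DN2a, 98.3 and 98.2 in DN2b and 81.7, 84.7 and 68.1 in IgG libraries. Every Delta1 library was above every LSK and IgG library, though DN1 replicate 2 and LSK replicate 3 were both at 85.8. The mean difference was 13.6 ± 3.63 points against LSK (adjusted p = 0.0431) and 15.4 ± 3.63 against IgG (adjusted p = 0.00434). The call against LSK was kept in 3 of 12 fits that left out a library, those without LSK replicate 3, IgG replicate 2 or IgG replicate 3, and its difference was 11.9 to 14.2 points in the 9 others, and neither call held with a 500 bp window. The best peak was a different one in the Delta1 libraries, as given further on.

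Ackr3 (chr1:90203980-90216751, plus strand) encodes an atypical receptor that takes up Cxcl12 without the usual signal. Its percentile was 78.9, 85.1 and 78.7 in LSK, 63.2 and 61.8 in DN1, 23.1 and 44.5 in DN2a, 47.0 and 76.2 in DN2b and 0 in all 3 IgG libraries. The IgG libraries were lower than LSK by 80.9 ± 9.17 points (adjusted p = 0.000133). The difference between Delta1 and LSK libraries, -28.3 ± 7.94 points, missed the threshold with all peaks (adjusted p = 0.0542) and was called at equal lengths (-59.6 ± 6.21, adjusted p = 6.20e-05).

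Ccr1 (chr9:123962124-123968692, minus strand), a receptor of monocytes and granulocytes that binds Ccl3 among others, was highest in the IgG libraries. It had no peak in LSK replicate 1, and 42.2 and 29.5 in the other LSK libraries. It stood at 84.1 and 73.7 in DN1, 0 and 52.5 in DN2a, 0 and 47.1 in DN2b and 86.6, 91.4 and 91.7 in IgG libraries. The IgG libraries were above LSK by 66.0 ± 16.1 points (adjusted p = 0.00786) and above Delta1 by 47.0 ± 14.0 (adjusted p = 0.0141), with no overlap in either comparison. The DN1 libraries were next to the IgG libraries, and DN2 libraries were lower than DN1 by 54.0 ± 17.1 points without a call (adjusted p = 0.244) and by 44.7 ± 7.12 with one at equal lengths (adjusted p = 0.00677).

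Ccr10, Ccrl2 and Cxcr5 were tested and not called with all peaks. Ccr10, a skin-homing receptor, was at 48.7, 29.3 and 42.4 in the IgG libraries and at 8.11, 0 and 0 in LSK. Of the 6 Delta1 libraries 2 had a peak, DN1 replicate 1 (55.2) and DN2b replicate 2 (74.3), both above every IgG library. At equal lengths Ccr10 was higher in IgG than in LSK libraries by 35.1 ± 5.08 points (adjusted p = 0.000508). Ccrl2, a chemokine-binding receptor-like protein, had a peak in 9 libraries at 4 merged positions between -542 and 588 bp, and Cxcr5, the receptor of follicular B and T cells, in 3 libraries.

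**Figure D3:**
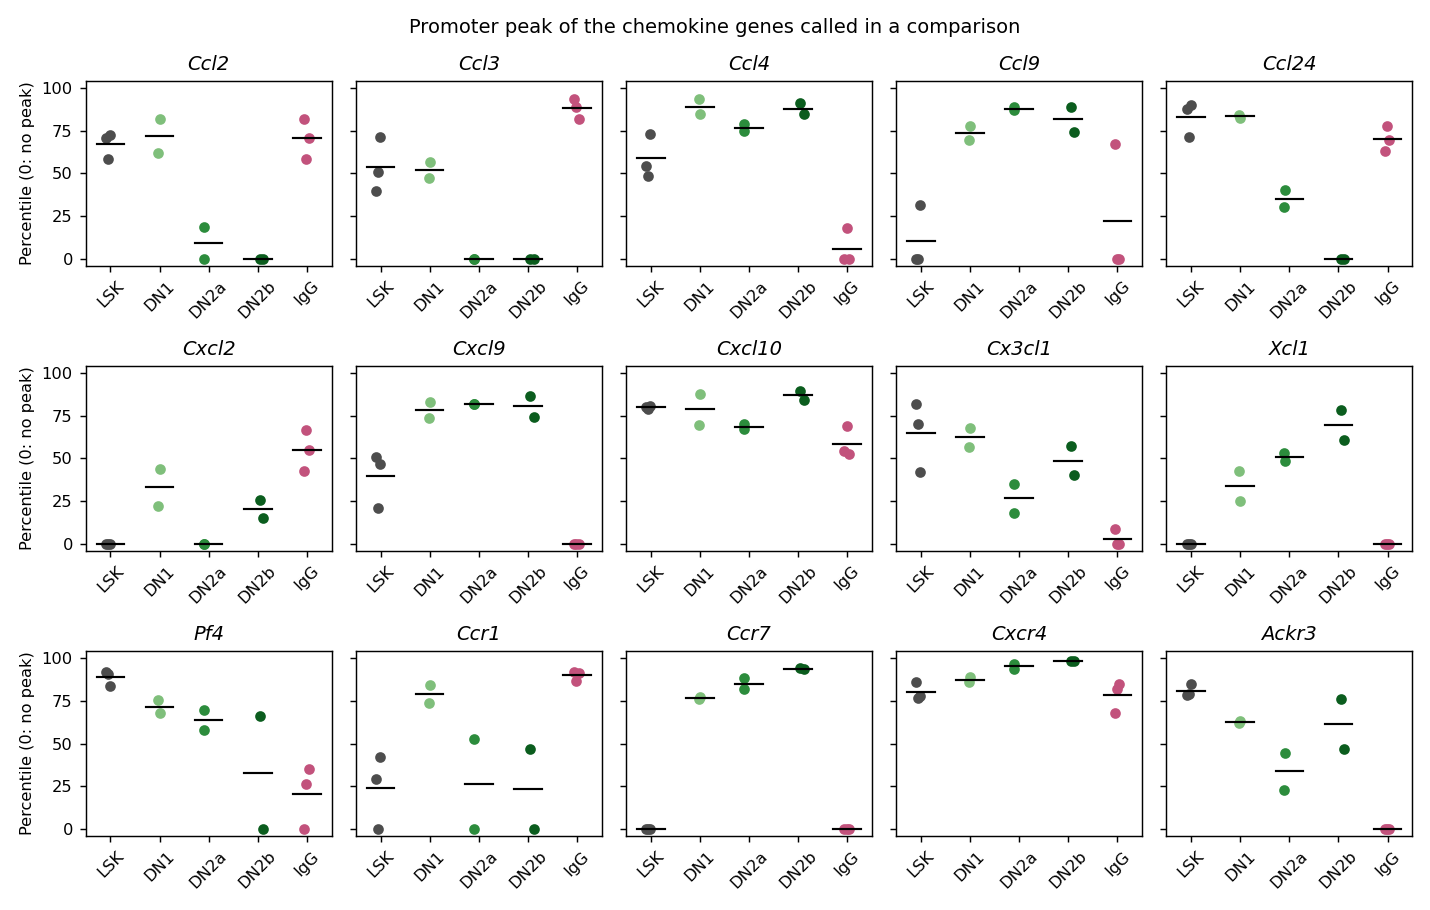
Percentile of the promoter peak (y axis, 0 for no peak) in each library (points) by group (x axis), with the group mean as a line, for the 15 chemokine genes called in at least 1 comparison. Ccr7 is at 0 in LSK and IgG and between 76.2 and 94.0 in the Delta1 libraries, and Ccl3 is at 0 in the 4 DN2 libraries and between 81.7 and 93.5 in IgG libraries.

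Ccl3 and Ccl4 are neighbouring genes whose start sites are 13.2 kb apart on chromosome 11, and both encode ligands that draw monocytes and T cells. Ccl3 (chr11:83647844-83649355, minus strand) stood at 50.8, 71.1 and 39.6 in LSK, 56.6 and 47.4 in DN1, 0 in all 4 DN2 libraries and 89.0, 81.7 and 93.5 in IgG libraries. Ccl4 (chr11:83662584-83664683, plus strand) stood at 48.6, 73.2 and 54.6 in LSK, 84.5 and 93.2 in DN1, 78.6 and 74.98 in DN2a, 84.7 and 91.0 in DN2b and 17.9, 0 and 0 in IgG libraries. The highest ranks of Ccl3 were thus in the IgG libraries and those of Ccl4 in the Delta1 libraries.

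Ccl3 was lower in Delta1 than in IgG libraries by 70.7 ± 7.71 points (adjusted p = 4.71e-05) and higher in IgG than in LSK by 34.2 ± 8.91 (adjusted p = 0.0106). It was lower in Delta1 than in LSK by 36.5 ± 7.71 (adjusted p = 0.0138), a call lost without LSK replicate 2 (-27.9 points). Ccl4 was higher in Delta1 than in IgG libraries by 78.5 ± 7.67 points (adjusted p = 2.52e-05) and lower in IgG than in LSK by 52.8 ± 8.85 (adjusted p = 0.00112). Neither gene's Delta1 and IgG libraries overlapped, and these Delta1 against IgG calls held under all alternatives. Ccl3 was lower in DN2 than in DN1 libraries by 52.0 ± 9.45 points (adjusted p = 0.0179), a call lost without DN1 replicate 1 (-47.4 points), DN1 replicate 2 (-56.6) or DN2a replicate 2 (-52.0). At equal list lengths neither DN1 library had a Ccl3 peak and the difference was 0. Ccl4 differed by -6.54 ± 9.39 (adjusted p = 1).

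Other peaks lie around the pair. A site 9.0 kb downstream of the Ccl3 start, between genes, was open in all 12 libraries at 89.7 or more. A site 9.7 kb downstream was open in the 6 Delta1 libraries (61.0 to 82.0), in LSK replicate 3 (54.6) and in no IgG library. It passed the filter through the Delta1 libraries, so its higher call there than in IgG restates that pattern. Inside the first kilobases of Ccl4, an intronic site 1.2 kb downstream of its start was open in the 3 IgG libraries (54.0, 68.2 and 70.5) and in LSK replicate 3 (58.1), and in no Delta1 library. With a 2.5 kb window this intronic peak counts as Ccl4's best in the IgG libraries, and the difference from LSK became 4.24 points, of the opposite sign.

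Ccl9 (chr11:83572919-83578636, minus strand), a ligand of Ccr1 found in rodents, stood at 77.8 and 69.5 in DN1, 87.1 and 88.6 in DN2a and 74.4 and 88.9 in DN2b libraries. Among the others it had a peak in LSK replicate 2 (31.6) and IgG replicate 3 (66.9) alone. The Delta1 libraries did not overlap the rest and were higher by 70.5 ± 14.4 points than LSK (adjusted p = 0.0116) and by 58.8 ± 14.4 than IgG (adjusted p = 0.00537). The call against LSK was lost without LSK replicate 1 or LSK replicate 3 (65.3 points in each case). Both calls were lost with a 2.5 kb window, in which Ccl9 had a peak in all 12 libraries (differences of 3.61 from IgG and 12.8 from LSK). The peaks of LSK replicate 2 and IgG replicate 3 lay at another position, given further on.

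Ccl2 and Ccl24 were lower in the DN2 libraries. Ccl2 (chr11:82035571-82037453, plus strand), a major monocyte attractant, stood at 58.6, 72.2 and 70.6 in LSK, 81.5 and 61.8 in DN1, 18.4 and 0 in DN2a, 0 and 0 in DN2b and 58.6, 70.8 and 81.9 in IgG libraries. Ccl24 (chr5:135569937-135573049, minus strand), an eosinophil attractant, stood at 71.3, 89.8 and 87.8 in LSK, 82.6 and 84.2 in DN1, 30.3 and 39.98 in DN2a, 0 and 0 in DN2b and 77.7, 69.5 and 62.8 in IgG libraries. In both genes the DN1 libraries were within or next to the range of LSK and IgG libraries, and all 4 DN2 libraries were below every other library.

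DN2 libraries were lower than DN1 by 67.0 ± 9.96 points at Ccl2 (adjusted p = 0.00575) and by 65.8 ± 8.45 at Ccl24 (adjusted p = 0.00288). The Ccl24 call held under every alternative, while that of Ccl2 was lost without DN1 replicate 1 (-57.2 points), at equal list lengths and with the upper 50% of each list. Both genes were also lower in Delta1 than in LSK libraries on average, by 40.2 ± 8.13 points at Ccl2 (adjusted p = 0.0108) and 43.5 ± 6.90 at Ccl24 (adjusted p = 0.00254), where the DN1 libraries lay within or near the LSK range. The Ccl2 call against LSK was lost without LSK replicate 2 (-37.6 points) or LSK replicate 3 (-38.5).

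Cxcl9 and Cxcl10 encode interferon-induced ligands for activated T cells, and their start sites are 20.8 kb apart on chromosome 5. Cxcl9 (chr5:92321347-92328079, minus strand) stood at 21.2, 47.0 and 50.8 in LSK, 83.1 and 73.7 in DN1, 82.0 and 82.1 in DN2a, 74.4 and 86.7 in DN2b and 0 in all IgG libraries. Its peak is intronic, 508 to 548 bp downstream of the start, and with a 500 bp window the gene has no promoter peak. The Delta1 libraries were higher by 40.7 ± 7.84 points than LSK (adjusted p = 0.00806) and by 80.3 ± 7.84 than IgG (adjusted p = 2.52e-05), and the 3 groups did not overlap.

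Cxcl10 (chr5:92346638-92348889, minus strand) was open throughout, at 78.9, 80.6 and 80.2 in LSK, 88.0 and 69.5 in DN1, 67.3 and 70.0 in DN2a, 84.1 and 89.6 in DN2b and 68.7, 52.8 and 54.6 in IgG libraries. It was lower in IgG than in LSK libraries by 21.2 ± 6.54 points (adjusted p = 0.0232) and than in Delta1 libraries by 19.4 ± 5.66 (adjusted p = 0.0131). The call against LSK was lost without any 1 LSK library, IgG replicate 2 or IgG replicate 3 (-18.2 to -21.7 points). Both calls were lost at equal list lengths, where the difference between Delta1 and IgG libraries was -2.61.

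Xcl1 (chr1:164931644-164935527, minus strand), a ligand secreted by activated T and NK cells, had no peak in the LSK and IgG libraries. It stood at 24.9 and 42.9 in DN1, 53.1 and 48.6 in DN2a and 60.5 and 78.5 in DN2b libraries. The difference from each other group was 51.4 ± 6.001 points. Like Ccr7, Xcl1 passed the filter through the Delta1 libraries alone, so these values restate that pattern and no test is drawn from them. At equal lengths neither DN1 library kept the peak, the difference was 11.02 ± 3.42 in both comparisons, and the call against LSK was lost. With the upper 50% of each list it was 14.04 ± 6.70 and both calls were lost (adjusted p = 0.0893 against IgG and 0.255 against LSK). DN2 libraries were above both DN1 libraries without a call (26.3 ± 7.35, adjusted p = 0.149). Of 6 markers of NK and innate lymphoid cells, 2 to 4 were open in Delta1 libraries (summed percentile 171 to 309), 1 to 3 in LSK (68.3 to 127) and 0 in IgG libraries, with Ncr1 at 0 in all 12, and their part in the Xcl1 result was not tested.

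Cxcl2 (chr5:90903871-90905938, plus strand), a neutrophil attractant, was highest in the IgG libraries at 66.6, 54.9 and 42.4. It was 0 in all LSK and both DN2a libraries, 43.6 and 22.4 in DN1 and 15.3 and 25.5 in DN2b. The IgG libraries were above LSK by 54.6 ± 7.75 points (adjusted p = 0.000458), and above Delta1 by 36.8 ± 6.71 (adjusted p = 0.000991), where DN1 replicate 1 overlapped the lowest IgG library. Both calls were lost with the upper 50% of each list (IgG above LSK by 14.3 points, adjusted p = 0.135, and Delta1 minus IgG -14.3, adjusted p = 0.0680). Its neighbours Cxcl3 and Cxcl5, with a peak in 6 and 5 libraries, none of them IgG, were not called.

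Pf4 and Cx3cl1 had their highest group means in LSK libraries. Pf4 (chr5:90772435-90773383, plus strand), a platelet and megakaryocyte ligand, stood at 90.6, 84.0 and 91.7 in LSK, 67.7 and 75.4 in DN1, 69.6 and 57.9 in DN2a, 0 and 65.9 in DN2b and 26.6, 35.3 and 0 in IgG libraries. Cx3cl1 (chr8:94772009-94782427, plus strand), the membrane-bound ligand of Cx3cr1, stood at 70.1, 42.2 and 81.6 in LSK, 67.7 and 56.9 in DN1, 34.9 and 18.2 in DN2a, 40.5 and 57.02 in DN2b and 0, 0 and 8.77 in IgG libraries. The IgG libraries were lower than LSK by 68.1 ± 15.1 points at Pf4 (adjusted p = 0.00489) and 61.7 ± 10.7 at Cx3cl1 (adjusted p = 0.00132), and did not overlap them.

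Delta1 libraries were lower than LSK by 32.7 ± 13.1 points at Pf4 and 18.8 ± 9.22 at Cx3cl1 without a call (adjusted p = 0.177 and 0.292), and both were called at equal lengths. The higher Pf4 rank in Delta1 than in IgG libraries (35.5 ± 13.1 points, adjusted p = 0.0366) was lost in 6 of 12 fits that left out a library: LSK replicate 1, either DN1 library, DN2a replicate 1, IgG replicate 1 or IgG replicate 3, with differences of 25.1 to 38.4 points. With the upper 50% of each list, the promoter calls lost were those of Ccl2, Ccl24, Cxcl2, Cx3cl1, Xcl1 and Ackr3 between Delta1 and IgG, Ccl2, Ccl3 and Xcl1 between Delta1 and LSK, Ccl4, Cxcl2 and Cxcl9 between IgG and LSK, and Ccl2 and Ccl3 between DN2 and DN1.

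The best peak of a promoter did not always lie at the same place, so that a percentile can join different sites. Cxcr4, Pf4, Ccl9 and Cxcl2, chosen after their values were seen, are described here, and midpoints also ranged from -79 to 301 bp at Ccr1, -468 to 12 bp at Ccr10, -552 to 668 bp at Ccrl2 and -392 to -52 bp at Cxcl3. At Cxcr4 the best peak lay at -18 to -278 bp from the start in LSK and at -38 to -98 bp in IgG libraries, and in the first intron at 942 to 982 bp in all 6 Delta1 libraries. Taken as a merged site of its own, this intronic peak stood at 63.5, 65.0 and 79.4 in LSK, 85.8 to 98.3 in Delta1 and 0 in all IgG libraries. It was higher in Delta1 than in LSK by 24.3 ± 3.75 points (adjusted p = 0.00159) and higher in LSK than in IgG, with a difference of IgG minus LSK of -69.3 ± 4.33. The merged site at the start itself, open in 11 libraries, differed by 2.68 points between Delta1 and IgG (adjusted p = 0.900) and by 29.5 ± 15.3 between Delta1 and LSK (adjusted p = 0.219), neither of them a call.

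At Pf4, a site at the start (midpoint 6 bp downstream) was at 90.6, 84.0 and 91.7 in LSK, 60.7 and 75.4 in DN1, 0, 0, 0 and 28.9 in DN2 libraries and 0 in IgG. It was lower in DN2 than in DN1 libraries, with a difference of -60.8 points (adjusted p = 0.00105), and lower in Delta1 than in LSK, with one of -61.3 (adjusted p = 0.000256). The best peaks of the DN2 libraries that had one lay at -384 to -404 bp and those of IgG replicates 1 and 2 at -864 bp. At Ccl9, a site centred at -655 bp was open in the 6 Delta1 libraries and in no other (81.1 points), whereas LSK replicate 2 and IgG replicate 3 had a peak 125 and 105 bp downstream. The site at -655 bp passed the filter through the Delta1 libraries alone, so its difference restates that pattern and no test is drawn from it. With a 500 bp window the Ccl9 differences took the opposite sign.

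At Cxcl2, a site centred at -290 bp was at 66.6, 54.9 and 37.6 in IgG and at 6.79 in DN1 replicate 1 alone among the others. It passed the filter through the IgG libraries, so its calls in both IgG comparisons restate that pattern and no test is drawn from them. The Delta1 peaks lay at -760 to -820 bp. These site values were looked up after the promoter values had been seen, in the fit over all sites.

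**Figure D4:**
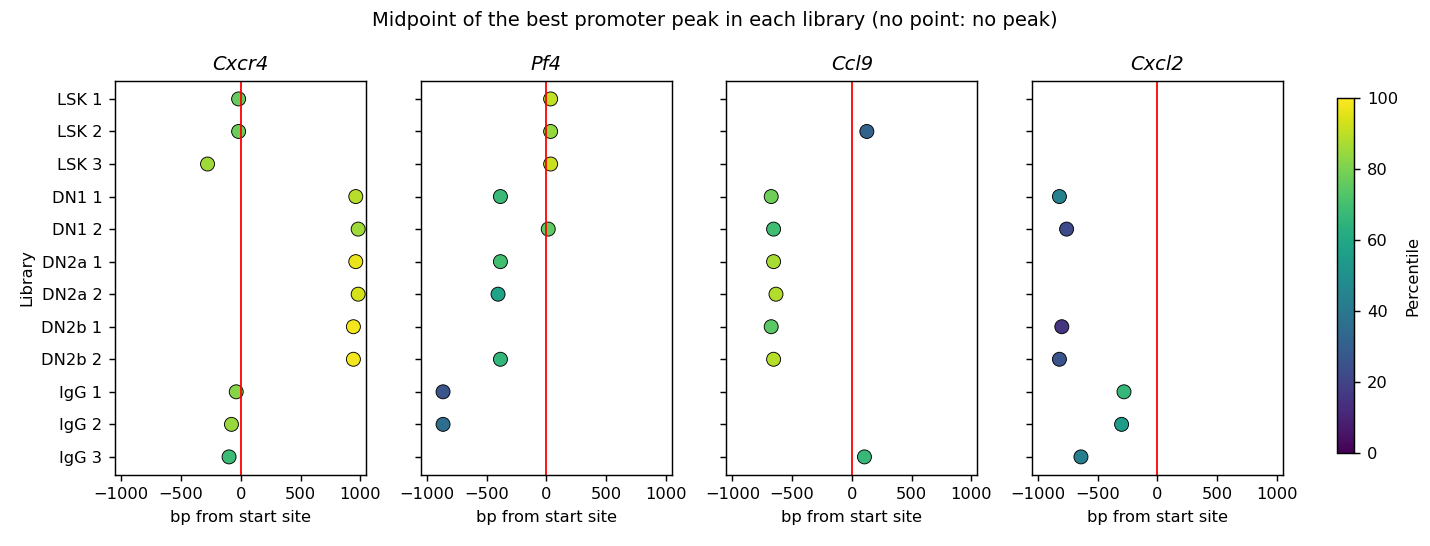
Midpoint of the best promoter peak in bp from the start site (x axis, negative upstream, red line at the start) in each library (rows) at Cxcr4, Pf4, Ccl9 and Cxcl2, coloured by percentile. The Cxcr4 peak sits 942 to 982 bp downstream in the 6 Delta1 libraries and upstream of the start in the other 6, and the Ccl9 peak at -635 to -675 bp in Delta1 libraries alone.

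The gene records of several receptors, and of the ligand Ccl1, start at a transcript that begins upstream of their other start sites, so every protein-coding start site was also tried. Receptors with a peak in at least 2 libraries then numbered 11 in place of 7, and ligands stayed at 14. Ccr9, the receptor that responds to thymic Ccl25, stood at 50.6 and 25.05 in DN1, 54.9 and 37.6 in DN2a and 79.0 and 87.8 in DN2b libraries at its start at position 123767211 of chromosome 9. It had no peak in LSK libraries, and in IgG libraries only a peak at another start in replicate 3 (3.45). Delta1 libraries were higher by 55.8 ± 6.76 points than LSK and by 54.7 ± 6.76 than IgG. Ccr9 passed the filter through the Delta1 libraries, so these differences restate that pattern and no test is drawn from them.

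Ccr4, a receptor of activated and regulatory T cells, had a peak in the 4 DN2 libraries alone, at 54.9, 63.9, 74.4 and 85.4, at -9 to -69 bp from a start at position 114496562 of chromosome 9. The difference between DN2 and DN1 libraries was 69.7 ± 5.90 points. Ccr4 passed the filter through these 4 DN2 libraries alone, so the difference restates that pattern and no test is drawn from it. Cx3cr1, a monocyte and macrophage receptor, stood at 0, 34.5 and 24.1 in LSK, 63.6 to 85.4 in the 6 Delta1 and 54.0, 0 and 68.1 in IgG libraries at its start at position 120068283 of chromosome 9, and was called higher in Delta1 than in LSK (57.3 ± 13.6, adjusted p = 0.0237). Ccr6 had a peak in 3 of the 4 DN2 libraries and nowhere else. These 4 receptors were named after their values had been seen, and their values are given with all peaks only.

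The 487 merged sites within 25 kb of a member's gene body and over 1 kb from its start comprised 183 near ligands and 304 near receptors. The count includes 52 sites at the start of another coding gene, so that the Ccl3 promoter is also a distal site of Ccl4. Of all 487, 33 (6.78%) were open in all 12 libraries, beside 7.68% of all 170207 merged sites. In all 6 Delta1 libraries and no other, 9 (1.85%) were open, beside 1.90%, and in all 3 IgG libraries and no other 12 (2.46%), beside 1.89%.

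Of the 369 tested, 155 were called higher in Delta1 than in IgG libraries (42.0%, beside 38.4% of 114527 sites) and 49 lower (13.3%, beside 7.77%). Against LSK, 86 were higher in Delta1 (23.3%, beside 17.4%) and 20 lower (5.42%, beside 5.24%). Near receptors 58 of 222 were higher (26.1%), near ligands 28 of 147 (19.0%). IgG libraries were higher than LSK at 28 sites (7.59%, beside 4.86%) and lower at 64 (17.3%, beside 17.0%). DN2 libraries were higher than DN1 at 34 (9.21%, beside 5.58%) and lower at 38 (10.3%, beside 9.41%): 28 higher and 21 lower of 222 near receptors, 6 higher and 17 lower of 147 near ligands. At equal list lengths 233 distal sites were tested, of which 59 were higher in Delta1 than in IgG libraries (25.3%, beside 25.3% of 59212 sites) and 60 lower (25.8%, beside 21.9%). Against LSK, 44 were then higher (18.9%, beside 15.5%) and 20 lower (8.58%, beside 13.2%). IgG libraries were then higher than LSK at 36 (15.5%, beside 13.0%) and lower at 31 (13.3%, beside 15.6%), and DN2 higher than DN1 at 31 (13.3%, beside 8.74%) and lower at 19 (8.15%, beside 7.71%). Sites near the same gene and genes of the same cluster share regions and are not independent. The shares over all sites, here and above, include sites at promoters, while each member's own promoter is left out of its distal sites.

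Open distal sites were also counted per gene. Around Cxcr4, with 18 sites, 2, 2 and 2 were open in LSK libraries, 6 and 3 in DN1, 8 and 5 in DN2a, 10 and 12 in DN2b and 7, 7 and 3 in IgG. Around Ccr9, with 27 sites along a gene record of 105.9 kb, 6, 4 and 7 were open in LSK, 11 and 8 in DN1, 12 and 12 in DN2a, 11 and 21 in DN2b and 2, 3 and 6 in IgG libraries. Near both genes every DN2b library was above every LSK library, while around Ccr7, with 12 sites, the counts were 3 to 5 in LSK, 8 and 5 in DN1, 3 and 1 in DN2a, 3 and 8 in DN2b and 1 in each IgG library. The high second value in DN2b belongs to the longest list.

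The 5 ligand and 5 receptor sites with the smallest adjusted p were picked for large differences, so their patterns describe that choice. Of these 10 sites, 4 were open in all Delta1 libraries and in no other. They lay in an intron of the 129.0 kb Ccl1 record, 91.1 kb (82.6 to 95.8) and 110.5 kb (81.0 to 92.0) from its start, in a coding exon of Arrb2 22.4 kb from Cxcl16 (78.6 to 90.7) and in an intron of the Ccr9 record 82.5 kb from its start (74.6 to 89.4). These intron labels rest on the long transcripts alone: measured from the nearest coding start, at position 82179812 of chromosome 11 for Ccl1 and 123767211 of chromosome 9 for Ccr9, the sites lay at -34.8 and -15.3 kb for Ccl1 and -6.23 kb for Ccr9. Another 4 were open in all LSK and Delta1 libraries and in no IgG library. These lay 19.9 kb upstream of Ccl5, 9.2 kb downstream of the Ccl9 start, at the Cxcr4 intron described above and 17.4 kb upstream of Ackr2. The Ccl5 site rose from 60.4, 63.6 and 69.4 in LSK to 78.6 to 96.7 in Delta1 libraries (26.3 ± 3.46 points, adjusted p = 0.000667).

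The Ccr9 intronic site 76.2 kb from the record's start (-12.6 kb from the nearest coding start), printed above, was at 73.4, 73.2 and 84.1 in LSK, 95.5 to 99.8 in Delta1 and 0, 0 and 4.17 in IgG libraries. In each Delta1 library it was the highest-ranked of the 10 sites, and it was higher in Delta1 than in LSK by 21.3 ± 2.96 points (adjusted p = 0.000897). The Ccr1 site 3.7 kb downstream of its start, also printed, was at 85.1, 92.5 and 85.7 in IgG libraries and absent from the other 9, a difference of 87.8 ± 5.21 points from LSK.

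**Figure D5:**
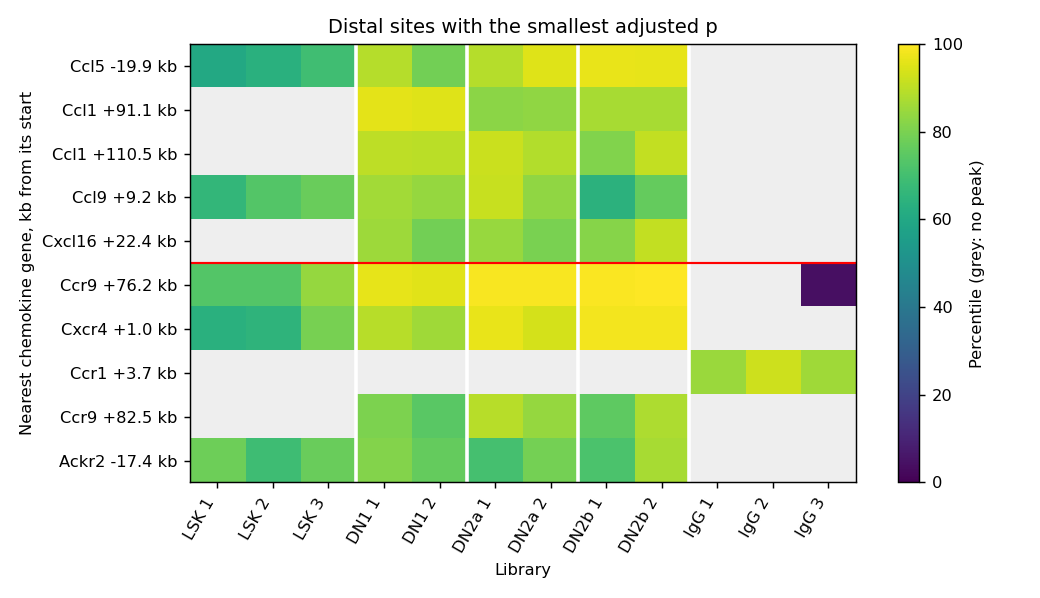
Percentile (colour, grey for no peak) in the 12 libraries (columns) of the 5 ligand and 5 receptor distal sites with the smallest adjusted p, labelled by the nearest member and the distance from its start in kb. Of the 10 sites, 4 are open in Delta1 libraries alone, 4 in LSK and Delta1 libraries, and the Ccr1 site in IgG libraries alone.

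Genes that carry or restrain the receptor signal inside the cell were open in most libraries. Of 22 such genes, 20 or 21 had a promoter peak in every LSK and Delta1 library and 16 to 19 in IgG libraries. The share of all coding promoters with a peak was 51.0 to 52.5% in LSK, 48.2 to 57.1% in Delta1 and 40.9 to 44.1% in IgG libraries. Among the 22 genes, Rgs16 had no peak anywhere. Of the 21 tested, 15 were called higher in Delta1 than in IgG libraries and 1 lower, none was called between Delta1 and LSK or between DN2 and DN1, and 1 was higher and 11 lower in IgG than in LSK. Of all promoters, 56.4% were called higher in Delta1 than in IgG and 41.3% lower in IgG than in LSK. At equal lengths, with 22.1% of all promoters higher, 5 of 20 were higher and 1 lower in Delta1 than in IgG libraries, and Pik3cg was lower in Delta1 than in LSK. In IgG against LSK at equal lengths, 7 of 20 were lower and 1 higher, beside 19.3% and 5.49% of all promoters. The widest difference was at Rgs1, an inhibitor of G protein signals below chemokine receptors, open in all LSK and Delta1 libraries and in no IgG library (90.3 ± 4.92 points, adjusted p = 1.25e-06). Rgs18 followed another pattern, open in all 12 libraries and higher by 43.3 ± 3.42 points in Delta1 than in IgG (adjusted p = 7.74e-06).

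Markers of other cells moved with these results. Of 12 myeloid markers, 7 to 9 were open in IgG libraries (summed percentile 509 to 621). In LSK libraries 3 or 4 were open (101 to 117), and in Delta1 libraries 2 to 5 (77.5 to 231). Of the 9 tested, 5 were called lower in Delta1 than in IgG (Adgre1, Camp, S100a8, S100a9 and Cd14) and none higher, beside 2.86% of all promoters called lower. All of these but Cd14 were at 0 in every Delta1 library. Csf1r, Elane and Mpo were also at 0 there, but had a peak in only 1 IgG library each. Mrc1 went the other way, at 0 in every IgG library and open in 3 Delta1 libraries. Ltf was 23.3 ± 11.2 points higher in Delta1 than in IgG, without a call. Itgam (17.8 to 69.5) and Lyz2 (10.8 to 79.8) had a peak in every Delta1 library and were not called between Delta1 and IgG with all peaks. At equal lengths, 7 of 7 tested markers were lower in Delta1 than in IgG, beside 13.0% of all promoters. The part of myeloid cells in the higher ranks of Ccl3, Cxcl2 and Ccr1 in IgG libraries was not tested. Of 12 T lineage markers, all were at 0 in IgG libraries, 1 or 2 were open in LSK, 4 in each DN1 library and 7 to 11 in DN2 libraries. With every coding start site, the setting of the Ccr9 and Ccr4 results, 1 of the 12 was open in each IgG library (summed percentile 92.9 to 97.7), 2 or 3 in LSK (118 to 144), 6 in DN1 (383 and 406) and 9 to 11 in DN2 libraries (691 to 975). Their part in the Ccr7, Ccr9 and Ccr4 results was not tested. Of 8 mast cell and basophil markers, 1 was open in each LSK library (summed percentile 30.2 to 52.7), 2 or 3 in Delta1 (65.1 to 142) and 0 to 2 in IgG libraries (0 to 37.0). Of the 3 of them that were tested, Cpa3, a mast cell carboxypeptidase, and Mcpt8, a basophil protease, were called higher in Delta1 than in both IgG and LSK, Cpa3 by 73.1 ± 7.86 points over IgG (adjusted p = 4.39e-05) and 34.9 ± 7.86 over LSK (adjusted p = 0.0194). Of the 4 NK and innate lymphoid markers tested, Klrb1c and Klrd1, NK cell receptors, were called higher in Delta1 than in both, as they were at equal list lengths, where Cpa3 kept both calls and Mcpt8 had none. Of all promoters, 56.4% were called higher in Delta1 than in IgG libraries and 4.97% higher than in LSK (22.1% and 4.38% at equal lengths). The part of such cells in the higher ranks of members in Delta1 libraries, Xcl1 among them, was not tested. Of 8 stem and progenitor markers, 5 or 6 were open in LSK (summed percentile 399 to 445), 4 or 5 in Delta1 (280 to 409) and 2 to 4 in IgG libraries (92.3 to 239). Of the 6 tested, 5 were called lower in IgG than in LSK, beside 41.3% of all promoters. At equal lengths 3 of 5 were, beside 19.3%. Cd34 was lower in DN2 than in DN1 by 50.9 ± 9.46 points (limma adjusted p = 0.0206), a call lost at equal lengths. The part of such cells in the lower ranks of members in IgG or DN2 libraries was not tested. In a bulk library, a lower rank in every cell and a smaller share of open cells cannot be told apart.

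Promoter letters were also counted in 300 base RefSeq promoters (GRCm38.p6), found for 41 of the 53 members and 16433 coding genes. NF-kB letters stood in 6 members (14.6%) and 1.44% of all promoters: Ccl1, Cxcl1, Cxcl2, Cxcl3, Cxcl10 and Ccr3. RUNX letters stood in 11 (26.8%, beside 14.7%): Ccl3, Ccl20, Cxcl3, Cxcl9, Xcl1, Ccr1, Ccr6, Cxcr1, Cxcr6, Cx3cr1 and Ackr3. Of these, Ccl20, Ccr6, Cxcr1 and Cx3cr1 had no promoter peak at the start of the gene record in any library. AP-1 letters stood in 7 (17.1%, beside 7.11%). RBPJ letters, those bound by the partner of Notch, stood in Ccl9 and Ccr3 alone (4.88%, beside 6.26%). A match is a description of the sequence, and its absence says only that these letters are not in the window.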

How the data were processed

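DNase-seq peaks of 12 mouse libraries were analysed. The authors trimmed adapters, aligned reads to mm10 with BWA 0.7.12 and SAMtools 1.2 and called peaks per library with hotspot2 (false discovery rate 0.05). Each deposited list gives peaks of 150 bp with a score whose meaning is not given in the sources used here, so it was replaced by a percentile within the library. The lists hold no read totals, so depth and counting error are unknown. No 2 lists were identical.

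Groups came from the labels. Promoters (12730) and merged sites (114527 of 170207) with a peak in at least 2 libraries were fitted with limma 3.58.1 (R 4.3.3, trended moderated variance), with a mean for each of 5 groups, 4 contrasts and Benjamini-Hochberg adjustment at 0.05. The Delta1 value is the mean of the DN1, DN2a and DN2b group means, and n under a group mean is 2 or 3. Python 3.11.15, pandas 2.3.3, NumPy 2.4.6 and SciPy 1.17.1 did the rest. The code was tested on simulated data. Isolates can be shared between groups and are not identified, so p-values may be too small or too large.

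The members and the gene lists were chosen with earlier results of these data known. Values in every library are given for members called in any contrast, and of distal sites for the 5 ligand and 5 receptor sites with the smallest adjusted p that lie at no other coding start. Other genes were named after their values were seen. Alternatives were equal list lengths (32952 peaks), the upper 50% of each list, windows of 500 bp, 2.5 kb, 10 kb and 50 kb, every protein-coding start, no filter, complete separation (a peak in every library of one side, none in the other), merging at 75 bp overlap and leaving out each library. Of 6 B lineage markers, also counted, 1 or 2 were open per library, and of the 2 tested Ebf1 was called lower in IgG than in LSK and Delta1 libraries (beside 41.3% and 56.4% of all promoters), neither call remaining at equal list lengths.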

Additional observations from a re-analysis of the deposited data

How the results depend on the processing

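No paired analysis was possible because the labels carry no replicate numbers. Of the 35 calls of single genes, 35 kept their side of the threshold with every coding start site and without the filter, 23 at equal list lengths and 21 with the upper 50% of each list, and the cause of the losses was not tested. The number of member promoters called between Delta1 and IgG was 15, and it was 9 with the upper 50%, 4 by complete separation (a peak in every library of one side and in none of the other) and 14 to 16 when a library was left out. Between Delta1 and LSK it was 8, with 5 in a 500 bp window, 2 by separation and 6 to 9 with a library left out. Between IgG and LSK it was 9, with 4 by separation and 8 to 10 with a library left out. Between DN2 and DN1 it was 3, with 1 by separation, 1 without DN1 replicate 1 and 4 without DN2b replicate 1, the lowest and highest. Distal calls between Delta1 and IgG were 204, with 119 at equal lengths, 120 with the upper 50%, 53 by separation and 153 to 241 with a library left out. Between Delta1 and LSK they were 106, with 64 at equal lengths, 64 with the upper 50%, 12 by separation and 71 to 131 with a library left out. Between IgG and LSK they were 92, with 44 with the upper 50%, 61 within 10 kb, 58 by separation and 77 to 95 with a library left out. Between DN2 and DN1 they were 72, with 43 within 10 kb, 27 by separation and 48 to 75 with a library left out. Except at equal list lengths, shares over all promoters or sites under these alternatives are not given. The counts under them therefore describe the members alone and show no excess. The excess of open ligands in Delta1 over IgG libraries, 3.5, was -0.167 at equal lengths, 1.83 with the upper 50%, 1.5 in a 500 bp window and 2.83 to 4.17 with a library left out. Over LSK it was 0.5, and -0.833 at equal lengths, -0.5 at 500 bp, -0.167 at 2.5 kb and -0.167 to 1.17 with a library left out, lowest without DN2a replicate 1. The excess of open receptors over IgG, 1.67, was 0 at equal lengths, 4.33 at 2.5 kb, 3.67 with every start site and 0.833 to 2.5 with a library left out, and that over LSK, 1.67, was 0.667 at equal lengths, 4 with every start site and 0.833 to 2.5 with a library left out. Signs turned at Ccl9 in a 500 bp window (-22.3 against IgG, -10.5 against LSK), at Cxcl10 at equal lengths (-2.61, Delta1 against IgG) and at Ccl4 at 2.5 kb (4.24, IgG against LSK). The unknown depth limits what a missing peak in the short IgG lists can show.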
